A study of Mus musculus with 2 samples.

Results

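The peaks described are the intergenic binding sites of KLF4 in mouse portal fibroblasts that lay at most 50 kb from the start of a transcript, the transcription start site (TSS). They are the peaks of a single annotated list whose class was distal intergenic and whose nearest TSS was at most 50 kb away on either side. There were 1282 such peaks among 4216 (30.4% of the list), assigned to 1155 nearest genes. A further 533 intergenic peaks lay beyond 50 kb. Neither the class nor the distance uses the strength of a peak.

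The question behind the study was by which routes KLF4 influences the transition of portal fibroblasts to myofibroblasts. Its cells were primary hepatic portal fibroblasts sorted from livers of Clec3bCreERT2;R26tdT mice as Clec3b-tdT+ cells, in which a Cre recombinase driven by Clec3b switches on a red reporter. Both groups carried lentiviral Klf4 overexpression: the first was 1 library of chromatin precipitated with an antibody against KLF4 (ChIP), the second 1 library of input chromatin without precipitation. No cells without extra Klf4 were analysed here, nor was the control immunoglobulin precipitation that the protocol names. The sources used here give neither the number and age of the mice nor whether animals were pooled. With 1 library in each group no value has a replicate error, and no comparison was tested. Exact 95% intervals on shares cover counting error only and treat peaks as independent. A peak list measures no RNA, so the labelled cell type was not checked against expression of its markers.

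KLF4 is a zinc-finger transcription factor that binds CACCC boxes and GC-rich DNA, and it can raise or lower the activity of its target genes. Such factors bind promoters, next to the TSS, and also enhancers, which may lie in introns or between genes and can act over long distances. The gene nearest to an intergenic peak is a conventional label, and the gene an enhancer acts on may be another one. Portal fibroblasts surround the bile ducts and portal vessels of the liver, and in biliary injury they can become myofibroblasts, which are contractile and lay down scar matrix.

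Sequences are shown for some of the genes nearest to a peak, with the microRNAs chosen only by their presence in a sequence table. The peaks themselves are placed on GRCm39, and their sequence was not used here. Of 25 microRNA genes nearest to a peak, 6 were in the RefSeq microRNA table (GRCm38.p6). Their mature sequences are given 5′ to 3′ with the seed, the stretch that pairs with targets (bases 2 to 8), in capitals. They include miR-146a and miR-101c, whose gene had the most peaks of any. All 22 of those peaks lay in a stretch of chromosome 9 with raised input, described further on. The 8 mature sequences had 8 distinct seeds, so none could be grouped.
miR-6350: uAGCAGGUgcauuauaaauau
miR-7025-5p: cGUGAGCUgaagcugguggcuccc
miR-7025-3p: cAGCACAAcuccagcucaccag
miR-101c: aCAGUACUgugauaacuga
miR-2136: cUGGGUGUugacugagaugug
miR-146a-3p: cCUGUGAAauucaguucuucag
miR-146a-5p: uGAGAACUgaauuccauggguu
miR-692: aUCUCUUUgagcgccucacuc

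Upstream sequence is shown for Klf3 and Notch2, the listed fibroblast genes with the highest fold and with the most ChIP fragments. Each run holds the 250 bases before the RefSeq TSS, 5′ to 3′ on the plus strand, with CACCC and its reverse complement GGGTG in capitals. They are Notch2 at chr3:98013288-98013537 and Klf3 at chr5:64803271-64803520, both on GRCm38.p6, positions that cannot be set beside those on GRCm39.
Notch2: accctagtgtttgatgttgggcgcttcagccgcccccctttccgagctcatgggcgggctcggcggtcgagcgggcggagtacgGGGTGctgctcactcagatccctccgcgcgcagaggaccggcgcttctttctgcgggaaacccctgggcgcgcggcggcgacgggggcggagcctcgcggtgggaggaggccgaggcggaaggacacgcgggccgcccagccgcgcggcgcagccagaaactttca
Klf3: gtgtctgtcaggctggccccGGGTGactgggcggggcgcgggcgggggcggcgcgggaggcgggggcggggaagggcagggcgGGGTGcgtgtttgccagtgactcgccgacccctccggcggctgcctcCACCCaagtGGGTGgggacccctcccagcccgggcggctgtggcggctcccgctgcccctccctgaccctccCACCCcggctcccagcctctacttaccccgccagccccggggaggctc
The Klf3 window held 5 matches, of which 2 were CACCC and 3 GGGTG, and the Notch2 window held 1. On either strand CACCC was found in 171 of 289 RefSeq promoter windows of protein-coding genes nearest to a peak (59.2%), and in 57.5% of all 32851 windows. The 32851 windows came from 27025 genes and were not limited to protein-coding ones, of which the RefSeq gene table holds 21900. The longer CCCCACCC, which contains CACCC, was in 13.5% of the windows of these genes (9.78% to 18.0%). That interval holds the 9.99% of all windows. The listed fibroblast genes had only 9 windows in the table, from 8 genes. Of these, 9 held CACCC (66.4% to 100%) and 4 held CCCCACCC (13.7% to 78.8%), and no enrichment was tested. A match is a string of letters in a promoter, and the intergenic peaks lie outside these windows.

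The peaks were short and rested on few fragments. They spanned a median of 198 bp, with quartiles of 142 and 291 bp, beside a median of 201 bp in the whole list. The widest peak, 1347 bp, lay near Defb1, an antimicrobial defensin gene, on chromosome 8. The strength of a peak is the authors' fold enrichment of ChIP over background, with 1 added to each. From fold and p, the number of ChIP fragments at the summit and the background derived from the input were recovered for each peak. The median fold was 4.59 (quartiles 4.54 and 4.94, range 1.78 to 14.5), from a median of 6 ChIP fragments. There were 493 peaks with 5 fragments and 451 with 6, together 73.6% (71.1% to 76.0%). The share was 75.3% in the whole list and 81.1% (77.5% to 84.3%) of intergenic peaks beyond 50 kb. At 353 peaks (27.5%) the background was the genome-wide one, 0.307 fragments. In the whole list 27.8% of peaks had that background, and the median fold and median number of fragments were the same as here. Exactly the same values, fold 4.59 from 5 fragments with a q-value of 0.0475, were shared by 291 peaks, and fold 4.54 from 6 fragments by another 166. An order among those peaks cannot be read from the list.

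A q-value under 0.01, by the authors' peak caller, was reached by 243 of the 1282 peaks (19.0%, 16.8% to 21.2%), close to the 17.4% of the whole list. Among intergenic peaks beyond 50 kb it was reached by 64 of 533 (9.37% to 15.1%). Outside high input background, defined as over 10 times the genome-wide one, the shares were 14.8% within 50 kb (177 of 1194, 12.9% to 17.0%), 10.9% beyond 50 kb (8.38% to 13.9%) and 15.0% of the list. The intervals within and beyond 50 kb overlapped there.

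Processed pseudogenes, protein-coding genes and long non-coding RNA (lncRNA) genes were the nearest genes of most peaks. Processed pseudogenes, copies of spliced RNAs reinserted into the genome, were nearest to 358 peaks (27.9%). Protein-coding genes were nearest to 344 peaks (26.8%, 24.4% to 29.3%), which belonged to 319 genes. LncRNA genes followed with 318 peaks (24.8%) and 275 genes. Small non-coding RNA genes were nearest to 166 peaks (12.9%), among them 54 peaks of small nucleolar RNAs, which guide modification of ribosomal RNA, 46 of spliceosomal and other small nuclear RNAs, and 46 of microRNAs. Genes of the annotation class TEC, which awaits experimental evidence, had 54 peaks, other pseudogenes 39, and immune receptor segments 3. Beyond 50 kb the protein-coding share was 15.6% (12.6% to 18.9%), and that of processed pseudogenes 38.1%. The protein-coding share was thus higher within 50 kb, with intervals that did not overlap. No random placement of peaks was run, so whether intergenic positions in general differ in the same way was not tested. In the whole list, with its promoter and intronic peaks, protein-coding genes were nearest to 44.0% of peaks.

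**Figure D1:**
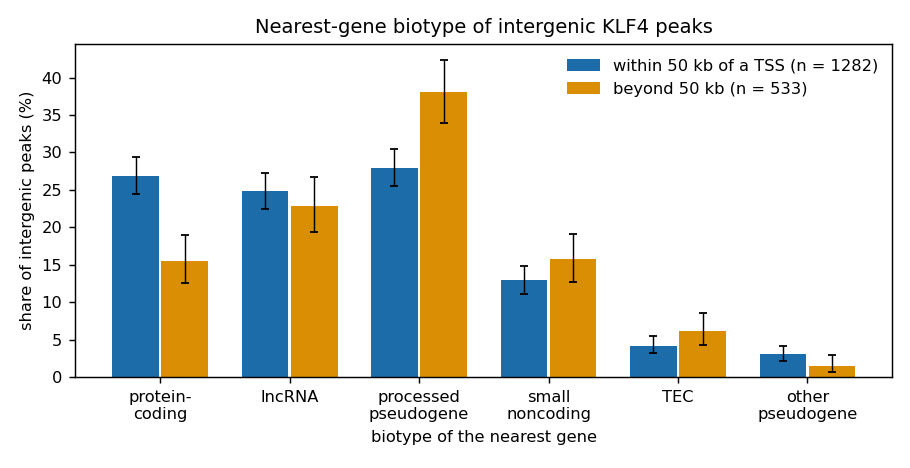
Share of intergenic peaks (vertical axis, percent) by biotype of the nearest gene, for the 1282 peaks within 50 kb (blue) and the 533 beyond 50 kb (orange), with exact 95% intervals for counting error. Protein-coding genes were nearest to 26.8% of peaks within 50 kb and 15.6% beyond, and processed pseudogenes to 27.9% and 38.1%.

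More peaks lay upstream of their nearest TSS than downstream, 759 against 523, an upstream share of 59.2% (56.5% to 61.9%). Beyond 50 kb the share was 50.7% (46.3% to 55.0%). Near protein-coding genes 239 peaks were upstream and 105 downstream (69.5% upstream, 64.3% to 74.3%), and near all other genes 55.4% were upstream. Peaks near lncRNA genes were upstream in 197 cases and downstream in 121, and those near processed pseudogenes in 193 and 165. An intergenic peak can lie downstream of a TSS only past the end of the transcript, so the length of the nearest transcript limits the downstream side. All 111 peaks next to transcripts over 50 kb long were upstream (100%), which the definition fixes. The median transcript length of protein-coding genes was 28.7 kb for upstream peaks and 3.93 kb for downstream peaks. Upstream shares near protein-coding genes were 38.5% for transcripts under 1 kb (5 of 13), 30.7% at 1 to 5 kb (23 of 75), 65.4% at 5 to 20 kb (68 of 104) and 86.6% at 20 to 50 kb (58 of 67). Near other genes they were 51.3%, 51.4%, 67.3% and 74.4%. For transcripts up to 5 kb no upstream excess was seen: near other genes the intervals held 50%, and near protein-coding genes at 1 to 5 kb the interval was 20.5% to 42.4%.

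**Figure D2:**
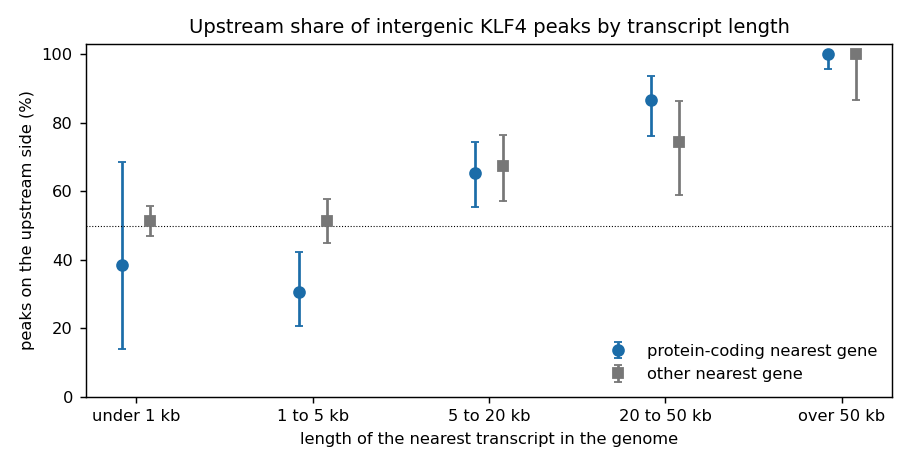
Share of peaks on the upstream side (vertical axis, percent) by length of the nearest transcript, for protein-coding genes (blue circles) and other genes (grey squares), with exact 95% intervals and a dotted line at 50%. Protein-coding shares run through 38.5%, 30.7%, 65.4% and 86.6% to 100% at over 50 kb, where a downstream position within 50 kb cannot occur.

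Peaks thinned out with distance from the TSS. The median distance was 16.1 kb, and the nearest peak lay 3025 bp away, just outside the 3 kb that the annotation counts as promoter. From 3 to 5 kb there were 130 peaks, or 65.0 per kb of distance, then 51.8 per kb at 5 to 10 kb, 37.3 at 10 to 20 kb, 23.1 at 20 to 30 kb, 16.6 at 30 to 40 kb and 12.3 at 40 to 50 kb. Distances were taken to the nearest TSS, which itself gives fewer positions at long distances, and no random placement of peaks was run. The upstream share was 70.8% at 3 to 5 kb and 48.8% at 40 to 50 kb, and the protein-coding share 30.8% and 21.1%. For protein-coding genes the median distance was 11.9 kb upstream and 19.0 kb downstream, and the downstream peaks lay a median of 13.1 kb past the transcript's end. The share with a q under 0.01 was 27.7% at 3 to 5 kb (20.2% to 36.2%) and 16.3% at 40 to 50 kb (10.2% to 24.0%), with overlapping intervals.

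**Figure D3:**
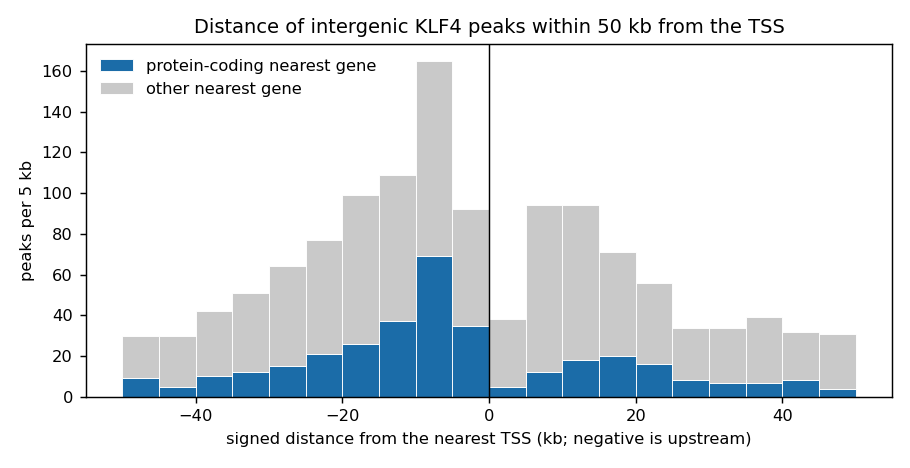
Number of peaks in each 5 kb of signed distance from the nearest TSS (horizontal axis, kb, negative is upstream), stacked for protein-coding (blue) and other nearest genes (grey). The tallest bar is upstream at 5 to 10 kb with 165 of the 259 peaks at that distance. The bars on either side of 0 hold only the 130 peaks at 3 to 5 kb, 92 of them upstream. Nearer positions count as promoter.

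The last peaks inside 50 kb belonged to the talin gene Tln2 (49707 bp upstream, fold 4.54), the pseudogene Gm11443 (49785 bp downstream, 6.06) and Samd3 (49827 bp upstream, 4.54). The first outside were at the small nuclear RNA Gm22798 (50477 bp, fold 4.54), the lncRNA Gm44271 (50555 bp, 4.91) and the phosphatase gene Dusp10 (50597 bp, 6.89).

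On the main chromosomes, outside high input background and outside 2 stretches of chromosomes 9 and 10 described further on, the strongest peak had a fold of 14.5 and spanned chromosome 1 from 132215689 to 132216342. It lay 3498 bp downstream of the TSS of Gm7241, a processed pseudogene. The 18 ChIP fragments stood against a background of 0.307, and the peak was 3141 bp past the pseudogene's end. The next was far below, at 8.41, near the lncRNA Gm57076. The small nuclear RNAs Gm24036 (7.65) and Gm55757 (7.60) and the lncRNA AV356131 (7.52) followed. Of the 12 highest, 1 was nearest to a protein-coding gene: Amn1, whose yeast counterpart restrains exit from mitosis, with a fold of 7.49 from 10 ChIP fragments against 0.468. That peak lay on chromosome 6 (149094886 to 149095388), 4676 bp upstream of the TSS. The others, with folds of 7.12 to 7.32, were near Gm5047, Gm32098, 4933427D06Rik, Gm48969, Gm50380 and Gm34096.

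The protein-coding genes named next were chosen for fold after the values were seen and have varied roles. Rapgef3, an exchange factor for Rap proteins that responds to cyclic AMP, had a peak 4868 bp upstream with a fold of 6.88 (8 ChIP fragments, background 0.307). Sirpa, an inhibitory receptor for CD47, had one 12563 bp downstream with a fold of 6.51 (9 fragments against 0.537). Dock5, an activator of Rac, had a fold of 6.43, and the lectin gene Cd209a, the LIM-domain cofactor gene Ldb2, the splicing factor gene Hnrnph1 and the olfactory receptor gene Or1q1 each had 6.12 from 7 fragments. Mmp24, a membrane-bound matrix metalloproteinase, the zinc-finger gene Zfp641 and the macrophage lectin gene Siglec1 shared 5.84 from 8 fragments. Strap, whose product binds TGF-β receptors and damps their signal, had 5.82 at 31802 bp upstream. Nnmt, a nicotinamide methyltransferase gene, had 5.61 at 35842 bp downstream. Outside high background and both stretches, on the main chromosomes, 36 of 323 peaks near protein-coding genes had a q under 0.01 (11.1%, 7.93% to 15.1%), against 133 of 857 near other genes (15.5%, 13.2% to 18.1%). On the upstream side it was 115 of 699 (16.5%, 13.8% to 19.4%) and on the downstream side 54 of 481 (11.2%, 8.55% to 14.4%). In both comparisons the intervals overlapped.

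The protein-coding genes with the nearest peaks, all upstream, were led by Vldlr, the receptor for very-low-density lipoprotein and reelin (3026 bp, fold 5.19, 7 fragments). The RNA-binding protein gene Pum3 (3072 bp, 4.75), the glutathione transferase gene Gsta2 (3138 bp, 4.59) and the keratin gene Krt73 (3150 bp, 5.48) came next. Cpsf6 and Frs2 were also among the nearest 10, with 52 and 47 ChIP fragments against backgrounds of 19.2 and 17.3, inside the stretch of chromosome 10.

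In 11 lists of genes of fibroblast function, with 429 genes of the gene table, 12 genes (2.80%, 1.45% to 4.84%) were nearest to an intergenic peak within 50 kb, against 294 of all 21900 protein-coding genes (1.34%). A peak of any class was assigned to 47 of the 429 and to 1505 of the 21900, so the listed genes had the larger share there as well. The lists were chosen with earlier results of these data known, and no difference was tested. The amount of intergenic sequence next to each gene was not taken into account. Of the 319 protein-coding genes 25 had no matching symbol and are missing from the 294, whereas the 429 were all in the gene table. The growth factor list had 4 of 42 genes, TGF-β and BMP signalling 2 of 51, Wnt, Hedgehog, Notch and Hippo signalling 2 of 55. Matrix structure had 1 of 46, matrix turnover 1 of 34, inflammation 1 of 37, and mesenchymal and KLF/SP transcription factors 1 of 59. The contractile (34 genes), adhesion (33), portal fibroblast (25) and hepatic stellate cell (22) lists had 0, which allows shares of up to 10.3%, 10.6%, 13.7% and 15.4% by the exact interval. Among markers of other cells, 0 of 22 hepatocyte and cholangiocyte markers and 1 of 22 endothelial and leukocyte markers, the macrophage receptor Timd4 (fold 5.12), had such a peak.

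Of these 12 genes 1 had a peak with a q under 0.01, beside 19.0% of all the peaks and 11.1% of those near protein-coding genes outside high background and both stretches, so that a count of 1 does not set the listed genes apart. It was Klf3, a relative of KLF4 that mostly represses transcription, with 7 ChIP fragments against a background of 0.417 (fold 5.64, q = 0.00238). The peak on chromosome 5 (65000992 to 65001118) was 16840 bp downstream of the start of a Klf3 transcript 2742 bp long. Klf3 also had a promoter peak, 971 bp upstream of a TSS, with a fold of 5.19 and 7 fragments. Whether either start is the main one of the gene was not checked. Fst, the activin antagonist follistatin, had 7 fragments against 0.596 at 3576 bp upstream (fold 5.01, q = 0.0161), on chromosome 13 (114599063 to 114599340). Cxcl5, a chemokine that attracts neutrophils, had 8 against 0.812 at 4351 bp downstream (fold 4.97, q = 0.0145). Notch2, a receptor needed for bile duct formation, had the most fragments, 9 against 1.08, at 19259 bp upstream on chromosome 3 (97901295 to 97901584, fold 4.80, q = 0.0161).

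The other 8 genes had 5 or 6 fragments each. Bgn, the matrix proteoglycan biglycan, had 5 against 0.307 at 7561 bp upstream, and Ccn5, a secreted CCN family protein, the same values at 11446 bp upstream. Hbegf, a growth factor of the EGF family, had 5 at 21963 bp downstream, and Tgfbi, a matrix protein induced by TGF-β, 5 at 33500 bp downstream. Adamts1, a secreted protease, had 6 against 0.542 at 18424 bp downstream, and Tcf7l2, a transcription factor of Wnt signalling, the same at 29627 bp upstream. Vegfc, a growth factor of lymphatic vessels, had 6 against 0.564 at 26941 bp upstream, and Edn1, the vasoconstrictor endothelin 1, 6 against 0.551 at 46016 bp upstream. The transcripts assigned for Tgfbi and Adamts1 were 1331 and 1408 bp long, and whether they begin at the main start of these genes was not checked, so the distance and side may not be those of the gene. Folds of these 8 peaks ran from 4.47 to 4.59, at or below the median of all the peaks. No intergenic peak within 50 kb was assigned to Klf4, Clec3b or Postn (0 each). Postn had 1 peak of another class in the list, whereas Klf4 and Clec3b had 0 peaks of any class. Binding too weak to be called at this depth would not be listed.

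**Figure D4:**
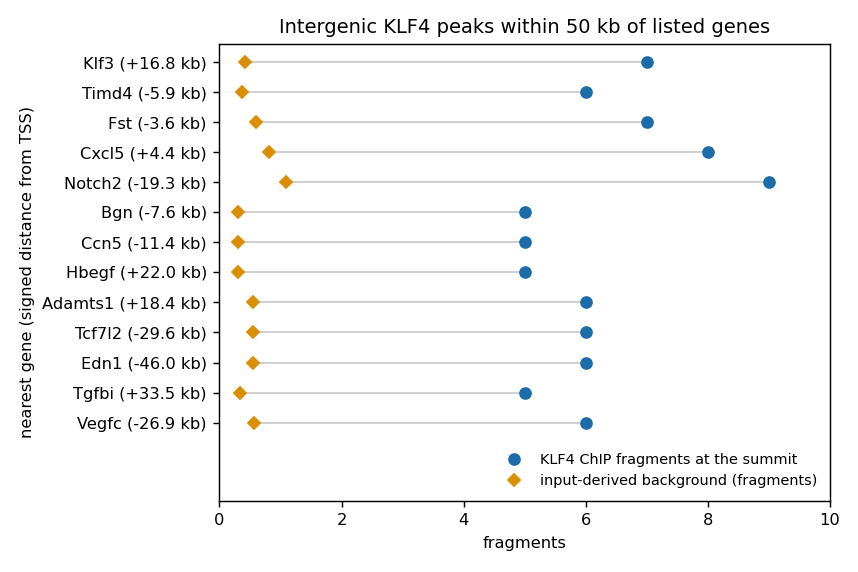
KLF4 ChIP fragments at the summit (blue circles) and input-derived background (orange diamonds), in fragments, for the 12 fibroblast-function genes and Timd4, ordered by fold with the highest at the top and labelled with the signed distance from the TSS. ChIP values run from 5 to 9 fragments and backgrounds from 0.307 to 1.08, a separation that calling a peak requires.

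The counts by gene family are read against the 1.34% of all protein-coding genes, so that a count of 0 in a family this small is no result. By symbol, 0 of 44 collagen genes, 0 of 31 integrin genes, 0 of 11 laminin genes, 0 of 34 FGF and PDGF family genes and 0 of 37 Wnt and Frizzled genes were nearest to one of these peaks. The MMP, ADAM and ADAMTS family had 4 of 85, Mmp24, Adam28 (fold 5.19), Adam29 (4.91) and Adamts1. The TGF-β and BMP family had 1 of 52, the bone morphogenetic protein gene Bmp3, with a fold of 4.51 at 29287 bp upstream. Chemokines and interleukins had 3 of 137, Cxcl5, Ccl9 (4.59) and the anti-inflammatory cytokine Il10 (4.59). Cadherins had Cdh18 (5.05) and the semaphorin, ephrin and slit group had Sema6d (4.42). Of the large families, olfactory receptors had 15 of 1110 (1.35%), vomeronasal receptors 2 of 353 (0.567%) and zinc-finger proteins 8 of 465 (1.72%).

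MicroRNA genes were nearest to 46 peaks, 22 of them at Mir101c. Mir146, which makes miR-146a, a restraint on inflammatory signalling, had 6 ChIP fragments against 0.542 at 21917 bp downstream (fold 4.54). Mir692-1 (12695 bp downstream) and Mir6350 (7780 bp downstream) each had a fold of 4.59 from 5 fragments, Mir7025 (31115 bp downstream) 4.64 from 6 and Mir2136 (9480 bp downstream) 4.54 from 5. These values were all near the median of the peaks, and the genes named are those in the microRNA table. Some other microRNA genes had higher folds outside high background, such as Gm54743 (6.49 from 9 fragments) and Gm55270 (5.84 from 8).

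Most genes had a single peak. Of 1155 genes of all biotypes 1096 had 1 peak, 48 had 2 and 11 had 3 or more. On the main chromosomes outside high background and both stretches, 10 protein-coding genes had 2. In 5 of these both peaks were upstream, among them Siglec1 (folds 4.42 and 5.84) and Pgd, a gene of the pentose phosphate pathway (4.59 and 5.35, separated by 361 bp). In 3 both were downstream. In 2 they lay on either side: Cx3cl1, the chemokine fractalkine, had one 4530 bp upstream (fold 5.16) and one 15239 bp downstream (4.32), and G6pd2, a glucose-6-phosphate dehydrogenase gene, one 3745 bp upstream (5.48) and one 29602 bp downstream (4.51). Of all 319 protein-coding genes, 39 also had a peak of another class, 12 in a promoter and 20 in an intron. These counts leave out no high background, and the promoter peaks of Cpm, Cpsf6 and Cwc22 lay in it. Over the gene table a peak of any class was assigned to 1505 of 21900 protein-coding genes, and no difference was tested.

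High input background held 88 of the 1282 peaks (6.86%, 5.54% to 8.39%). It held 4.79% of the whole list, 5.99% (4.51% to 7.78%) of promoter peaks and 2.06% (1.03% to 3.66%) of intergenic peaks beyond 50 kb. Of the 60 peaks with a q under 1e-05 it held 42, and of the 115 such peaks in the whole list 77. The median fold was 2.75 in high background and 4.59 elsewhere. A stretch of chromosome 10 (116987721 to 117626313) held 39 of the peaks, next to 12 genes of which lncRNAs had most peaks: Gm32235 had 13 and Gm32141 had 10. All 39 were in high background. They had 31 to 157 ChIP fragments (median 49) against a background 39.1 to 182 times the genome-wide one (median 57.2 times), and folds of 2.00 to 3.65. A stretch at the start of chromosome 9 (2999999 to 3038262) held 22, all assigned to Mir101c and all downstream, of which 15 were in high background. They had 11 to 260 fragments (median 29.5) against 5.29 to 175 times the genome-wide background (median 12.3 times), and folds of 3.11 to 8.38. The many fragments in both stretches stood beside raised input, whose part in them was not tested.

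**Figure D5:**
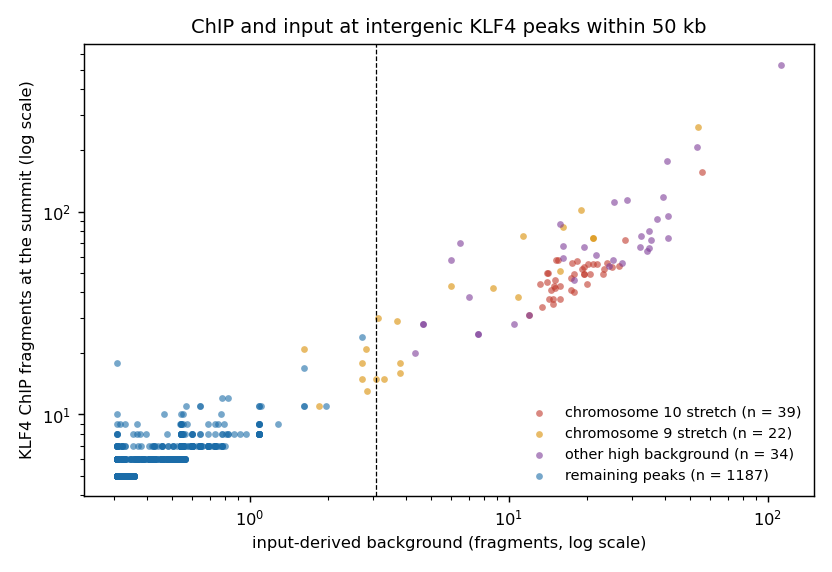
ChIP fragments at the summit (vertical axis, log scale) against input-derived background in fragments (horizontal axis, log scale) for the 1282 peaks, with the dashed line at 10 times the genome-wide background. The 39 peaks of the chromosome 10 stretch (red) and most of the 22 of the chromosome 9 stretch (orange) lie to the right of the line with 34 others (purple), while most of the remaining 1187 (blue) lie at 5 to 6 fragments.

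Elsewhere 34 more peaks were in high background. The largest ChIP value of all, 530 fragments against a background 367 times the genome-wide one (fold 4.67), was near the pseudogene Gm9075 on chromosome 12. The pseudogene Gm9637 on chromosome 14 had 6 such peaks, and ENSMUSG00000095041, a coding gene on the unplaced contig JH584304.1, had 14 peaks of which 7 were in high background. The lncRNA Gm29674 and the synaptic scaffold gene Lin7a, on another part of chromosome 10, had 9 and 3, all in high background. Of the 11 genes with 3 or more peaks, 1 had none in high background, the small nucleolar RNA Gm23749, with folds of 4.65 to 5.35. Apart from high background and both stretches, 56 of 1187 peaks (4.72%) lay within 10 kb of another peak. With nothing left out, the share was 11.4% of all 1282. It was 3.19% of intergenic peaks beyond 50 kb and 7.33% of all peaks other than the 1282, also with nothing left out. Among the 1187, 19 peaks had 10 or more ChIP fragments.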

How the data were processed

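Sorted Clec3b-tdT+ cells with lentiviral Klf4 gave 1 KLF4 ChIP and 1 input library, grouped by the antibody in their labels (KLF4 or none). Tools named in the submitters' processing notes, without settings here, are MACS2 2.2.7.1 and ChIPseeker 1.44.0, besides Bowtie2 2.4.2, fastp 0.24.0, bcl2fastq 2.17 and deepTools 3.4.1, and the build is GRCm39 (mm39). The authors deposited 1 annotated peak list of ChIP over input. Its fold enrichment is the authors' linear ratio, with 1 added to ChIP and background. Each peak's q-value, p-value and −log10 columns are used as deposited by the authors, as are class, nearest gene, biotype, signed distance (negative is upstream) and GO terms. Read totals were not used here.

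ChIP fragments at the summit and background were recovered from fold and p, taking p as the Poisson chance of more fragments than observed, and the values given back for all 4216 peaks were at most 0.001 from the −log10 p in the file. The recovery was tested on simulated peaks. A background of 0.307 was read as genome-wide and 0.542 as 1 input fragment. High background was over 10 times the genome-wide one.

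Shares have 95% Clopper-Pearson intervals. Symbols were matched to a RefSeq gene table of GRCm38.p6, used for names and counts, with 294 of 319 (92.2%) matched. Genes were named by rule: the 12 highest folds outside high background, the 12 lowest q, listed genes, the 10 protein-coding genes nearest their TSS, genes with 3 or more peaks, peaks next to the 50 kb limit, up to 3 per family, and Klf4, Postn and Clec3b. Other protein-coding genes and the GO groups were chosen after the values were seen. The peaks and the gene lists were chosen with earlier results of these data known. Software was Python 3.11.15 with scipy 1.17.1, pandas 2.3.3, numpy 2.4.6 and matplotlib 3.10.9.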

Additional observations from a re-analysis of the deposited data

How the results depend on the processing

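Of 42 alternatives 36 left a share within its interval or a count within 1.5 times, among them distance limits of 25 and 100 kb, leaving out both stretches or all high background, main chromosomes only and 1 peak per gene. The q limit of 0.01 accounted for 5 of the 6 others. With it 243 peaks remained, the protein-coding share was 21.4%, the upstream share 65.8%, the median fold 5.35, and 1 listed fibroblast gene was left in place of 12. The cause of the changed shares was not tested. With ChIP fragments as the measure the median strength was 6 fragments, a change of unit that was counted among the 6 by definition. The median fold is a value shared by many peaks, with an interval of 4.59 to 4.59, so most alternatives returned it unchanged. At 25 kb 8 listed genes were left in place of 12, at the edge of the limit of 1.5 times. Most peaks rest on 5 or 6 fragments, so differences in strength among them were not detectable at this depth. No paired analysis was possible because each group had 1 library.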

Other observations

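Grouped by the GO terms that the authors deposited, the 300 protein-coding genes with terms were set beside the 1234 with terms that were nearest to all other peaks in the list. These groups were formed after the values were seen, and no difference was tested. Extracellular matrix terms were held by 12 genes (4.00%), against 4.46% for the other peaks. Among them were Ndnf, a secreted neurotrophic protein (fold 5.19, 7 fragments), and Gpc1, a heparan sulphate proteoglycan (4.45). Adhesion terms were held by 17 (5.67%), against 7.13%, and actin terms by 13 (4.33%), against 5.51%. TGF-β and BMP terms were held by 6 (2.00%, against 2.03%), namely Bmp3, Cx3cl1, Fst, Hpgd, Pura and Strap. Cytokine and inflammation terms were held by 17 (5.67%, 3.34% to 8.92%), against 3.65% (2.67% to 4.85%). They included Ctla4, an inhibitory receptor of T cells (fold 4.46), and Nampt, an enzyme of NAD synthesis (4.54).

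Synapse terms were held by 23 genes (7.67%, against 8.18%), with glutamate receptor genes Gria1, Gria3 and Grm7 among them. Terms for smell were held by 15 (5.00%, 2.83% to 8.11%), against 1.94% (1.25% to 2.88%), with intervals that overlapped. Of the 15, 14 were olfactory receptor genes. Counted by symbol instead, 15 of 1110 olfactory receptor genes (1.35%) were nearest to one of these peaks, the share of all protein-coding genes being 1.34%. The gene table names these receptors by an older scheme than the peak list, so the 15 were counted in the list and the 1110 in the table. The strongest of these peaks, at Or1q1, had a fold of 6.12 and lay 5338 bp upstream.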
